A study of Mus musculus with 17 samples.

Results

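Calcium cycling and sodium pump genes were followed in the apex of the mouse left ventricle by bulk mRNA sequencing, for 37 genes of 21798 in the deposited table of CPM, reads scaled to one total in every library. The members were taken by gene symbol from a list of calcium uptake, release, entry, extrusion and kinase genes, and all 37 passed the filter on low values (0.5 CPM in at least 3 libraries), as did 16218 genes in all. By role, 6 act in uptake into the sarcoplasmic reticulum, 13 in release, the dyad and the luminal store, 7 in entry, 5 in extrusion and the sodium pump, 4 are kinase or calmodulin genes and 2 belong to the mitochondrion.

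All animals were male C57Bl6/J mice of 7 to 8 weeks at surgery, and no transgene or deletion is named for any group. Transverse aortic constriction (TAC), a ligature that narrows the aorta and loads the left ventricle with pressure, was set against a Sham operation. From 1 week after surgery each mouse received 6 oral gavages of saline (Veh) or of 50 μg/kg 29P, a prodrug made as a selective antagonist of αvβ3 integrin, and the hearts were taken 3 weeks after surgery. The 17 libraries, 1 per animal, comprised 5 of the Sham Veh group, 3 of TAC Veh, 3 of Sham 29P and 6 of TAC 29P. Each is named here by its group and the S number in its label (S1 to S20). The depth read from the step between low values ran from 14.2 M reads (Sham 29P S14) to 23.8 M (Sham Veh S5), with a median of 20.4 M.

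With each beat, calcium that enters a cardiomyocyte through L-type channels opens ryanodine receptors, which release the store of the sarcoplasmic reticulum onto the myofilaments. Relaxation follows as the pump SERCA2a returns calcium to the store under the brake of phospholamban, while the sodium-calcium exchanger and the plasma membrane pumps carry the rest out of the cell. The sodium pump sets the gradient on which the exchanger runs, and calmodulin with its kinase CaMKII tunes the channels and the pump. Loss of SERCA2a relative to phospholamban and to the exchanger is a known feature of the failing heart.

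3 libraries stood apart by their atrial transcripts. The summed CPM of 4 atrial genes (Sln, Myl7, Myl4 and Bmp10) was 2543 in Sham Veh S19, 2032 in Sham Veh S20 and 1529 in TAC 29P S18, with Myl4 the most abundant of the 4, against 0.352 to 5.75 in the other 14 libraries. Sln and Bmp10 were at 0 in several of those 14. Bmp10 was high in TAC 29P S18 alone (514 CPM), against 0.179 CPM in Sham Veh S19 and 0 in Sham Veh S20. The 3 libraries were thus alike in Sln, Myl7 and Myl4 but not in Bmp10. These 3 libraries therefore carried atrial transcripts under a ventricular label, and the counts of called members below are given with and without them. The 7 ventricular cardiomyocyte genes, of which Myh6 was the most abundant, summed to between 31079 and 48365 CPM in every library. Their change with surgery is given below with the markers of other cell types. Nppa, Nppb, Acta1 and Myh7, genes of the pressure overload response, summed to 7850 to 14436 CPM in TAC Veh and 3921 to 10770 CPM in TAC 29P, against 521 to 711 CPM in Sham 29P and 775 to 906 CPM in the 3 Sham Veh libraries without atrial transcripts.

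A second measure moved with surgery and bears on every CPM value. Transcripts encoded by mitochondrial DNA took 33.5% ± 3.64 (SD, n = 5) of reads after Sham surgery with saline and 35.6% ± 3.83 (SD, n = 3) with 29P. After TAC they took 26.1% ± 2.22 (SD, n = 3) with saline and 27.3% ± 1.69 (SD, n = 6) with 29P. On the CPM scale the median of all genes tested was 0.35 higher (log2) in TAC Veh than in Sham Veh and 0.37 higher in TAC 29P than in Sham 29P. With totals taken without the mitochondrial-encoded genes these medians were 0.19 and 0.20. TMM scaling, which centres the bulk of genes, brought them to 0.02 and 0.01. Changes of members after TAC are therefore given mainly on the CPM scale, as deposited, and on the TMM scale where the call or the direction differs. For a few members not called on the CPM scale no CPM change is printed. The direction turned with TMM scaling for 13 members in the saline groups and 12 in the 29P groups. A gene was called at an adjusted p of at most 0.05 (limma, adjusted over all genes tested).

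The coding sequences help to read some members. Phospholamban (Pln, ENSMUSG00000038583, GRCm38 chromosome 10, 53337667 to 53345987, plus strand) is encoded by a single short reading frame of 159 bases in GENCODE M21, shown because it is whole and small. The capitals mark codons 16 and 17, the serine and threonine that protein kinase A and CaMKII phosphorylate to release the brake on SERCA2a.
Pln: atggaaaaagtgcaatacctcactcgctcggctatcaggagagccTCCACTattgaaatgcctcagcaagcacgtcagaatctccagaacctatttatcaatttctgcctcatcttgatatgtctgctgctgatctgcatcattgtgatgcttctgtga

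Calm2 and Calm3 encode the same calmodulin protein from different genes, which bears on how reads could be assigned between them. Over 450 coding bases they shared 372 (82.7%), and the longest identical run was 17 bases. The first 120 coding bases of each, from GENCODE M21, are given with the 18 differing bases in capitals.
Calm2: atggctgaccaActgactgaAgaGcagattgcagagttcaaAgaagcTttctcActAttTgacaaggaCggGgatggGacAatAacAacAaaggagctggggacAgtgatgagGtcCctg
Calm3: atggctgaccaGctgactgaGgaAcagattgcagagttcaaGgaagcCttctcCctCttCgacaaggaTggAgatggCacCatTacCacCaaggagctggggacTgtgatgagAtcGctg

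In Sham Veh ventricles the order of the members by CPM per kb of exon was led by the genes of uptake. Pln stood at 1903 ± 149 CPM per kb (SD, n = 5) and Atp2a2 (SERCA2) at 1257 ± 220 CPM per kb. S100a1, a calcium sensor that binds SERCA2a and the ryanodine receptor, followed at 618 ± 39.9 CPM per kb, and these 3 were each separated from the next by more than the range over libraries. Casq2, the cardiac calsequestrin that buffers luminal calcium, at 306 ± 49.0 CPM per kb and Hrc, a luminal calcium-binding protein, at 289 ± 34.0 CPM per kb overlapped. Ryr2, the release channel, reached 26.8 ± 4.37 CPM per kb over 28790 exonic bases. Slc8a1 (the exchanger NCX1) at 11.1 ± 2.48 CPM per kb, Camk2d at 5.32 ± 0.583 CPM per kb and Cacna1c (the L-type channel pore) at 4.93 ± 1.51 CPM per kb followed. Camk2g at 5.33 ± 1.01 and Camk2d were not separated on this scale. It divides by all annotated exonic bases of a gene, 22493 for Camk2d and 6401 for Camk2g. Back-transformed from the mean log2 ratio, the CPM of Camk2d was 3.54 times that of Camk2g in Sham Veh. The lowest level was that of Fkbp1b at 0.340 ± 0.171 CPM per kb.

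Surgery was compared first in the saline groups, TAC Veh against Sham Veh. Of the 37 members 7 rose and 1 fell on the CPM scale, against a background of 22.5% of all genes tested that rose and 1.91% that fell. The median change of the members was 0.23 (log2) against 0.35 over all genes. The study called genes by DESeq2 at a p of at most 0.05 and named no adjustment for that call. At an unadjusted threshold of 0.05 in limma, 15 members were higher and 6 lower, where 37.4% of all genes were higher and 3.48% lower. These counts were 12 and 2 with the libraries with atrial transcripts left out, against 32.3% and 2.92% of all genes. On the TMM scale 1 member rose and 6 fell, against 4.04% and 5.44% of all genes, and the median was -0.10 against 0.02. Bin1 and Hrc were called on both scales. With the libraries with atrial transcripts left out, 5 rose and 1 fell on the CPM scale, against 13.4% and 0.937% of all genes in that fit, and 0 rose and 1 fell on the TMM scale, against 3.06% and 3.38%.

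Surgery under 29P, TAC 29P against Sham 29P, involved other animals throughout. 12 members rose and 3 fell on the CPM scale, against 31.4% and 1.12% of all genes, and the median change was 0.30 against 0.37. At the unadjusted threshold 18 were higher and 6 lower, against 43.5% and 1.96% of all genes, and 17 and 7 without the libraries with atrial transcripts, against 43.6% and 2.46%. On the TMM scale 2 rose and 8 fell, against 5.62% and 5.19% of all genes, with a median of -0.07 against 0.01. Casq1, Bin1, Pln, Hrc and Cacna2d1 were called on both scales. Leaving out the libraries with atrial transcripts, 11 rose and 4 fell on the CPM scale, against 30.2% and 1.33% of all genes, and 2 rose and 8 fell on the TMM scale, against 6.83% and 5.9%.

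**Figure D1:**
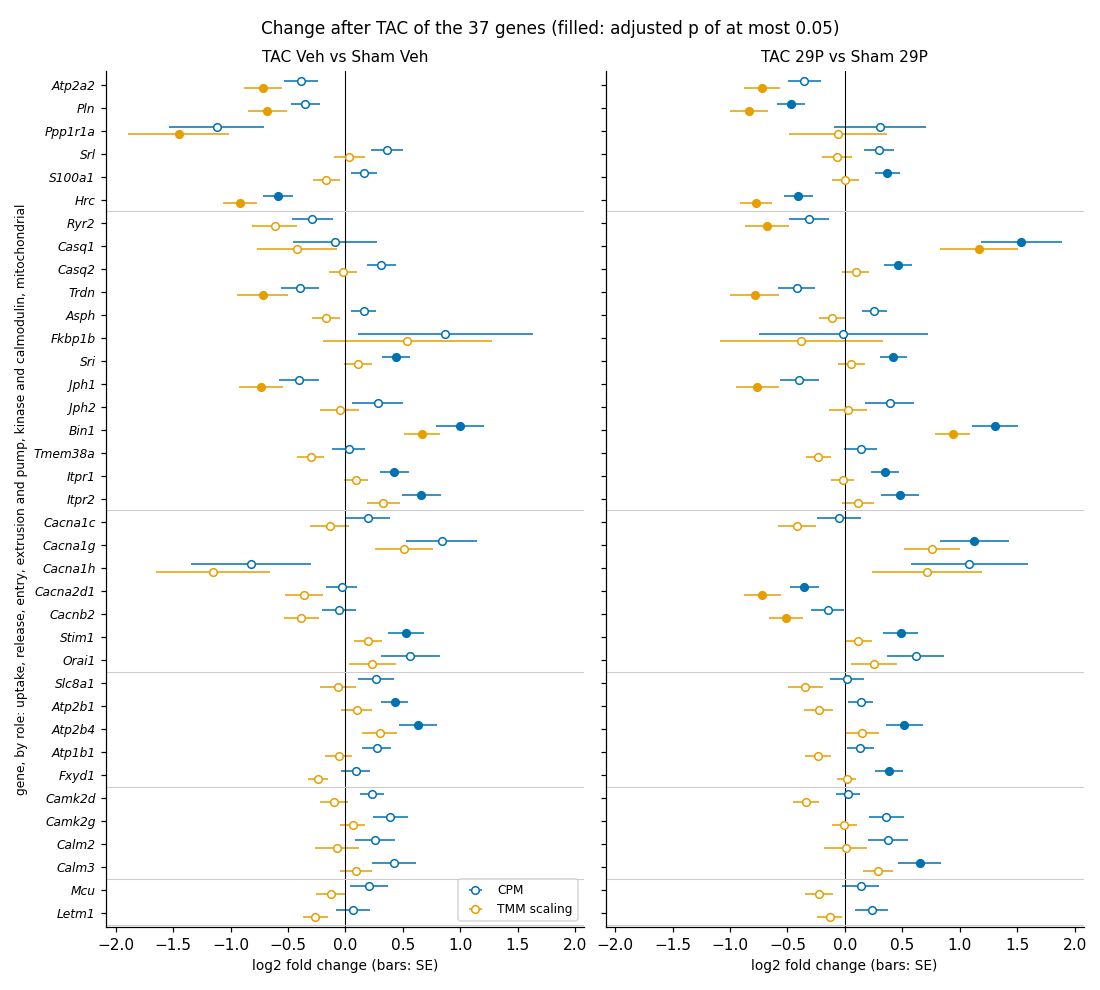
Log2 fold change after TAC (x axis) with its standard error for the 37 genes (y axis, by role), in the saline groups (left) and the 29P groups (right), on the CPM scale (blue) and after TMM scaling (orange); filled points have an adjusted p of at most 0.05. TMM values lie to the left of CPM values, so that 7 genes higher and 1 lower in the saline groups become 1 higher and 6 lower.

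These counts rested on few libraries. Without TAC Veh S2, 0 members rose and 0 fell in TAC Veh against Sham Veh, and the shares of all genes that did were 2.6% and 0.284%. Without TAC Veh S16 1 rose, against 12.8% of all genes, and without Sham Veh S5 12 rose and 2 fell, against 26.3% and 1.99%. The count that fell was 2 without Sham Veh S6, without Sham 29P S4 or without TAC Veh S12 (1.49%, 2.03% and 1.83% of all genes), and 4 without Sham 29P S14 (2.42%). In TAC 29P against Sham 29P the counts dropped to 2 higher (Casq1 and Bin1) and 0 lower without Sham 29P S14, the library with the lowest depth and the largest mitochondrial share (40.0%), and the shares of all genes dropped to 6.41% and 0.228%. The count lower was 1 without TAC 29P S3 (0.493% of all genes), and 5 without TAC 29P S18 or Sham Veh S6 (1.28% and 1.17%). The labels also carry a second number for each library, which falls into 4 separate runs. The last run is exactly the 3 libraries with atrial transcripts, so that run and atrial content cannot be told apart. Under 29P only 1 run held both surgeries, with 5 TAC 29P libraries and 1 Sham 29P library, so run and surgery were partly confounded there. When these runs entered the fit, 1 member (Bin1) was higher and 0 lower under 29P, against 4.19% and 0.166% of all genes, and 7 were higher and 1 lower under saline, against 19.2% and 1.28%.

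Of the 6 uptake genes, 0 rose and 1 fell in the saline groups on the CPM scale, and 0 rose and 4 fell on the TMM scale, where 22.5% and 1.91% of all genes on the CPM scale and 4.04% and 5.44% on the TMM scale did so. With the atrial libraries left out 1 fell on each scale (Hrc) and 0 rose, against 13.4% higher and 0.937% lower of all genes, and 3.06% and 3.38% on the TMM scale. Under 29P 1 rose and 2 fell, and 0 and 3 on the TMM scale, the same counts with and without those libraries. The shares of all genes there were 31.4% and 1.12%, and 5.62% and 5.19% on the TMM scale (30.2%, 1.33%, 6.83% and 5.9% without those libraries). Atp2a2 (ENSMUSG00000029467, chromosome 5, minus strand) read 9194, 5829, 7554, 6975 and 8663 CPM in Sham Veh S5, S6, S13, S19 and S20, and 5363, 6233 and 5758 CPM in TAC Veh S2, S12 and S16. It read 8959, 8530 and 8652 CPM in Sham 29P S4, S14 and S15, and from 5431 to 7893 CPM with a median of 7181 in TAC 29P. The TAC Veh values overlapped Sham Veh only through S6, and all TAC 29P libraries lay below all Sham 29P libraries. The log2 change was -0.39 ± 0.15 (SE) in the saline groups (adjusted p = 0.0645) and -0.36 ± 0.14 in the 29P groups (adjusted p = 0.0657), neither past the threshold on the CPM scale. TMM scaling gave a fall of 0.72 in each comparison (adjusted p = 0.0109 and 0.0106). Without the atrial libraries on that scale the adjusted p was 0.0670 in the saline groups and 0.0222 in the 29P groups.

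Pln, the brake on SERCA2a, gave 5800, 5142, 5514, 4752 and 5045 CPM in Sham Veh and 3847, 4862 and 3718 CPM in TAC Veh, in the same order of libraries. It gave 5994, 7882 and 5723 CPM in Sham 29P and 4071 to 5037 CPM with a median of 4776 in TAC 29P. TAC Veh and Sham Veh overlapped through TAC Veh S12 alone, and the 29P groups did not overlap. The change was -0.35 ± 0.13 (adjusted p = 0.0539) in the saline groups. In the 29P groups it fell by 0.47 (SE 0.12, adjusted p = 0.0126), and without Sham 29P S14, where Pln was highest, by 0.33 (adjusted p = 0.105). After TMM scaling it fell by 0.68 and by 0.84 (adjusted p = 0.0191 and 0.0066). Exons of Cep85l (mean 26.0 CPM) and Gm47644 (mean 58.7 CPM) lie over Pln on the opposite strand, and whether the authors counted by strand is not given in the sources used here.

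Hrc was the uptake gene called in each TAC comparison on each scale. It read 794, 629, 746, 684 and 850 CPM in Sham Veh and 424, 533 and 523 CPM in TAC Veh. In Sham 29P it read 740, 709 and 894 CPM, and in TAC 29P 473 to 680 CPM with a median of 601. Neither pair of groups overlapped, where 2.23% and 1.08% of all genes were lower without overlap. It fell by 0.59 ± 0.13 (adjusted p = 0.00738) in the saline groups and by 0.41 ± 0.13 (adjusted p = 0.0260) in the 29P groups. With TMM scaling the falls were 0.92 and 0.77 (adjusted p = 0.00137 and 0.00444). The call was lost without TAC Veh S2 (adjusted p = 0.0721) in the saline groups and without Sham 29P S14, Sham 29P S15 or TAC 29P S3 in the 29P groups (adjusted p = 0.0582, 0.124 and 0.0536).

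The other uptake genes did not follow one direction. S100a1 rose in the 29P groups (0.37 ± 0.11, adjusted p = 0.0213), where the lowest value, 273 CPM, was that of Sham 29P S14 and the call was lost without it (adjusted p = 0.182). Its TMM change was 0.00, and in the saline groups it turned from 0.16 to -0.17. Srl, sarcalumenin of the lumen, gave 0.36 in the saline groups and 0.30 in the 29P groups, with adjusted p = 0.0603 and 0.0905, and 0.03 and -0.07 on the TMM scale. Ppp1r1a, protein phosphatase inhibitor 1, stayed between 0.373 and 1.56 CPM in every library. It was called in the saline groups on the TMM scale alone (-1.45, adjusted p = 0.0458, against -1.12 on the CPM scale), and not there without the atrial libraries (adjusted p = 0.202), 2 of which held the highest Sham Veh values (1.56 and 1.35 CPM). In the 29P groups it gave 0.31 and, on the TMM scale, -0.06.

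**Figure D2:**
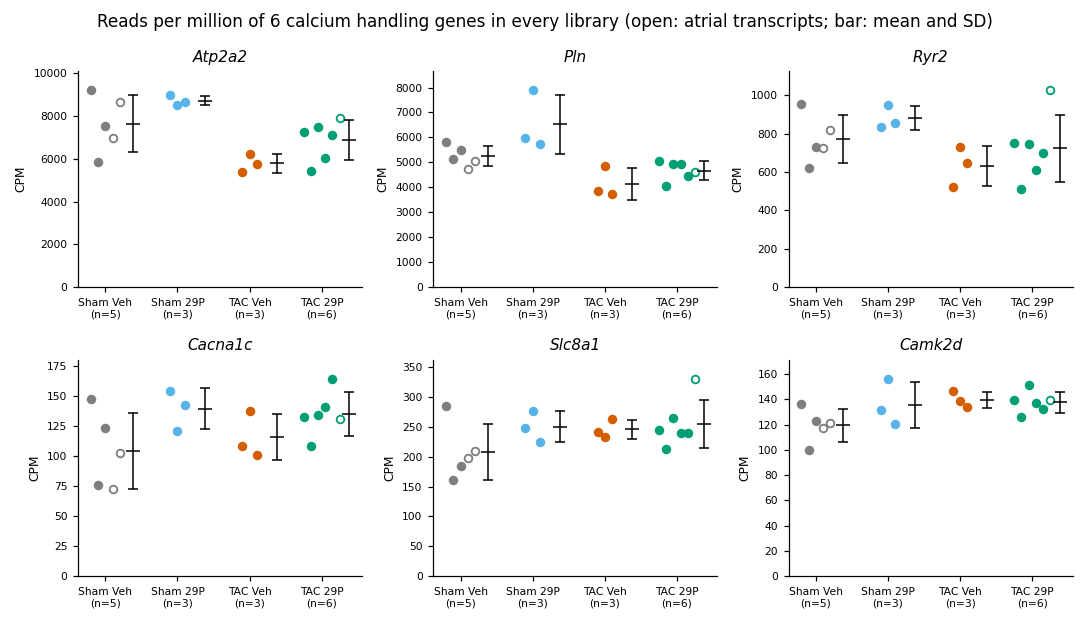
CPM (y axis, from 0) of Atp2a2, Pln, Ryr2, Cacna1c, Slc8a1 and Camk2d in each library by group (x axis), with the mean and SD as a bar beside each group; open circles are the 3 libraries with atrial transcripts. Atp2a2 in TAC 29P lies from 5431 to 7893 CPM, below the Sham 29P range of 8530 to 8959 CPM.

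Of the 13 release genes, 4 rose and 0 fell in the saline groups on the CPM scale, and 1 rose and 2 fell on the TMM scale, against the 22.5%, 1.91%, 4.04% and 5.44% of all genes. Leaving out the libraries with atrial transcripts, 2 rose and 0 fell on the CPM scale (Sri and Bin1) and 0 were called on the TMM scale, against 13.4%, 0.937%, 3.06% and 3.38%. Under 29P 6 rose and 0 fell, and 2 and 3 on the TMM scale, against 31.4%, 1.12%, 5.62% and 5.19%. Without those libraries the counts were 5 and 1, and 2 and 3, against 30.2%, 1.33%, 6.83% and 5.9%. Ryr2 read 957, 620, 732, 726 and 821 CPM in Sham Veh, 522, 728 and 645 CPM in TAC Veh, 835, 950 and 855 CPM in Sham 29P, and 510 to 1025 CPM with a median of 724 in TAC 29P. Its highest value of all 17 was that of TAC 29P S18, one of the libraries with atrial transcripts. The change was -0.29 ± 0.18 (adjusted p = 0.234) and -0.31 ± 0.17 (adjusted p = 0.166) on the CPM scale, and TMM scaling gave -0.62 (adjusted p = 0.0542) and -0.68 (adjusted p = 0.0301). Without TAC 29P S18 the 29P groups differed by -0.42 on the CPM scale (adjusted p = 0.0456).

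Trdn, triadin, which anchors calsequestrin to the channel, and Jph1, a junctophilin that holds the dyad, were called with all libraries only on the TMM scale. Trdn gave -0.72 and -0.79 there (adjusted p = 0.0484 and 0.0278) and Jph1 -0.74 and -0.76 (adjusted p = 0.0220 and 0.0165). On the CPM scale both lay between -0.39 and -0.42 with adjusted p from 0.0530 to 0.0916. Jph2, the main cardiac junctophilin, gave 0.28 ± 0.22 and 0.39 ± 0.22 on the CPM scale and -0.05 and 0.02 on the TMM scale, and was not called.

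Bin1, the amphiphysin that shapes T-tubule membrane and gathers L-type channels, was the member with the largest called rise in the saline groups. It read 6.90, 5.91, 8.46, 6.30 and 7.04 CPM in Sham Veh and 17.1, 11.2 and 13.6 CPM in TAC Veh. It read 7.01, 3.38 and 5.10 CPM in Sham 29P and 9.66 to 14.8 CPM with a median of 12.4 in TAC 29P. No TAC library reached down to a Sham library of the same treatment, where 27.6% and 25.0% of all genes were higher without overlap. The rise on the log2 scale was 1.0 ± 0.21 in the saline groups (adjusted p = 0.00528) and 1.30 ± 0.20 in the 29P groups (adjusted p = 0.00132). The TMM values were 0.67 and 0.94 (adjusted p = 0.0123 and 0.00238). In the saline groups the call was lost without TAC Veh S2 (0.84, adjusted p = 0.0573) and, on the TMM scale, without the atrial libraries (0.64, adjusted p = 0.0577).

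Casq1, the calsequestrin best known from fast skeletal muscle, was called in the 29P groups alone, and its values are given here because of that, after they were seen. It read 12.3, 8.05, 7.41, 15.7 and 13.9 CPM in Sham Veh, 13.3, 7.40 and 4.46 CPM in Sham 29P, and 15.2, 8.85 and 8.16 CPM in TAC Veh. In TAC 29P it read 23.0, 22.1, 30.9, 23.3, 10.8 and 28.9 CPM in S1, S3, S8, S9, S11 and S18. All TAC 29P libraries but S11 lay above every other library. The change was 1.53 ± 0.35 in the 29P groups (adjusted p = 0.00719) and -0.09 ± 0.36 in the saline groups (adjusted p = 0.863). The difference between these changes, 1.63 ± 0.51, had an unadjusted p of 0.00502 and an adjusted p of 0.998 (limma, interaction contrast). With the runs of label numbers in the fit the 29P change was 0.85 ± 0.31 (adjusted p = 0.0964), no longer called, and the difference between the changes was 0.27 ± 0.48 (unadjusted p = 0.583 in limma). Of 8 markers of skeletal muscle 6 were measured and Tnni2 was the most abundant, and their sum was 1.25 to 3.71 CPM in TAC 29P and 1.34 to 2.26 CPM in Sham 29P, and 1.37 to 2.29 CPM in TAC Veh and 1.66 to 8.62 CPM in Sham Veh. The highest value in each of TAC 29P and Sham Veh was that of a library with atrial transcripts, and the groups overlapped, with Myh1, Actn3 and Pvalb at 0 in at least 1 library. Casq1 and Casq2 shared 811 of 1173 aligned coding bases (69.1%) in GENCODE M21.

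Casq2 itself gave 1030, 691, 739, 827 and 900 CPM in Sham Veh and 1014, 1131 and 947 CPM in TAC Veh. It gave 917, 773 and 722 CPM in Sham 29P and 1006 to 1263 CPM in TAC 29P. It rose in the 29P groups (0.46 ± 0.12, adjusted p = 0.0132), was at 0.31 ± 0.13 (adjusted p = 0.0744) in the saline groups, and lay at -0.02 in the saline and 0.09 in the 29P groups on the TMM scale, where it was not called. The 29P call held in 15 of the 17 fits that left out 1 library and was lost without Sham 29P S14 or S15 (adjusted p = 0.0681 and 0.0567). With the runs of label numbers in the fit the adjusted p was 0.143.

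Sri, sorcin, which damps the ryanodine receptor, and the inositol trisphosphate receptors Itpr1 and Itpr2 rose in each TAC comparison on the CPM scale. Sri read 39.5, 41.7, 42.1, 44.5 and 44.3 CPM in Sham Veh and 57.6, 49.3 and 66.7 CPM in TAC Veh, and the groups did not overlap. It rose by 0.44 ± 0.12 (adjusted p = 0.0185) and by 0.42 ± 0.12 (adjusted p = 0.0163) in the 29P groups. Itpr2 read 24.0, 16.2, 25.3, 15.4 and 18.03 CPM in Sham Veh and 29.0, 26.3 and 37.7 CPM in TAC Veh, again without overlap, and rose by 0.66 ± 0.17 (adjusted p = 0.0133) and by 0.48 ± 0.16 (adjusted p = 0.0347). Itpr1 rose by 0.43 ± 0.13 and by 0.35 ± 0.12 (adjusted p = 0.0258 and 0.0412). None of the 3 was called on the TMM scale: Sri stood at 0.11 and 0.05, Itpr2 at 0.33 and 0.11, and Itpr1 at 0.10 and -0.02, the last a turn of direction. Each of these calls was lost in the saline groups without TAC Veh S2 or without TAC Veh S16, and in the 29P groups without Sham 29P S14. Itpr1 was called in 13 of the 17 fits that left out 1 library in the saline groups and in 11 of 17 in the 29P groups. Itpr2 was called in 15 and 13 of 17, its 29P call also being lost without Sham 29P S15, TAC 29P S3 or TAC 29P S18 (adjusted p = 0.0654, 0.0633 and 0.056), and its saline call without the libraries with atrial transcripts (adjusted p = 0.0606). Asph, Fkbp1b and Tmem38a were called in neither comparison on either scale, and Fkbp1b passed the filter through TAC libraries alone. Asph turned from 0.16 and 0.26 to -0.17 and -0.11 with TMM scaling, and Tmem38a from 0.03 and 0.14 to -0.30 and -0.23.

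**Figure D3:**
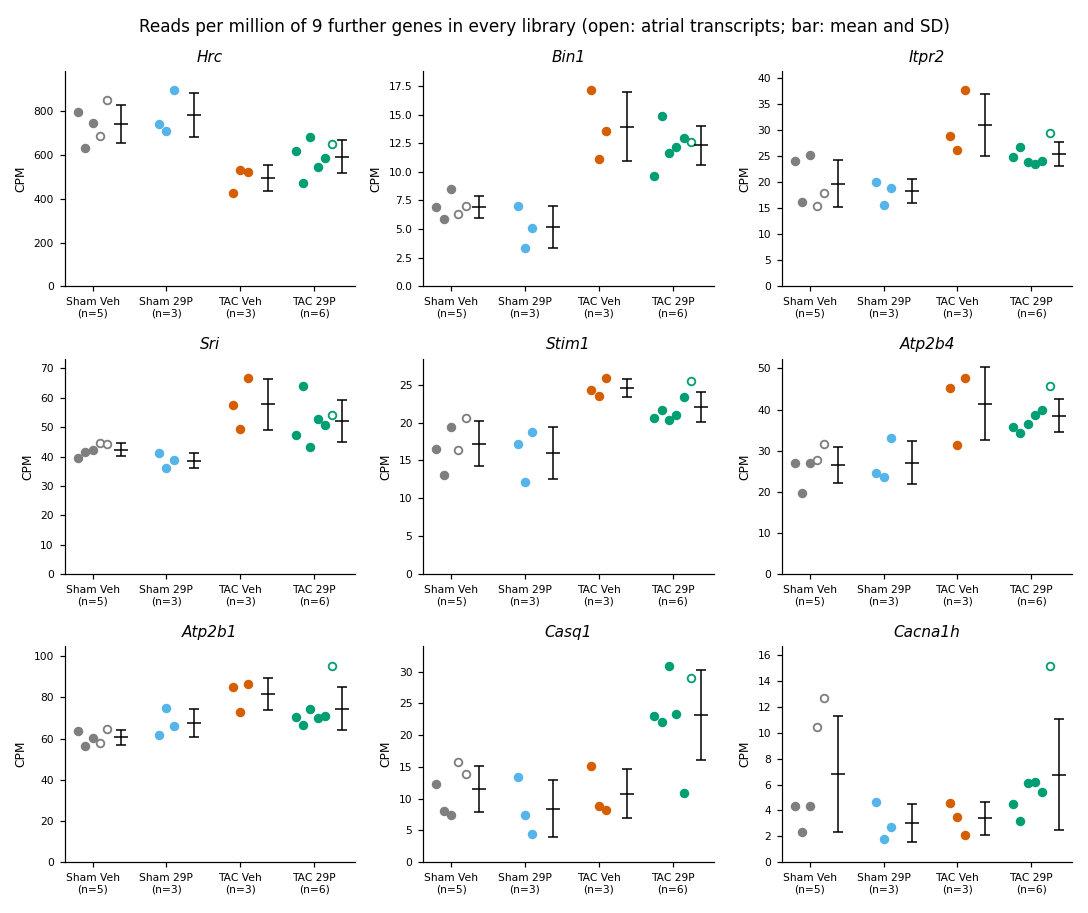
CPM (y axis, from 0) in each library by group (x axis) of Hrc, Bin1, Itpr2, Sri, Stim1, Atp2b4, Atp2b1, Casq1 and Cacna1h, with the mean and SD as a bar; open circles are the 3 libraries with atrial transcripts. Bin1 is at 11.2 to 17.1 CPM in TAC Veh against 5.91 to 8.46 CPM in Sham Veh, and Cacna1h is highest in the 3 open circles (10.5 to 15.2 CPM).

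Of the entry genes, the L-type pore Cacna1c gave 148, 75.8, 124, 72.4 and 103 CPM in Sham Veh, 108, 138 and 101 CPM in TAC Veh, 155, 121 and 143 CPM in Sham 29P, and 108 to 164 CPM with a median of 134 in TAC 29P. Its groups overlapped, with changes of 0.19 ± 0.20 and -0.05 ± 0.19 (adjusted p = 0.474 and 0.863). The TMM values were -0.14 and -0.41, so the direction in the saline groups turned. Its partner Cacna2d1, the auxiliary subunit that carries the channel to the membrane, fell in the 29P groups by 0.35 ± 0.13 (adjusted p = 0.0469), and by 0.72 on the TMM scale (adjusted p = 0.0111). That CPM call was kept in 6 of the 17 fits that left out 1 library. The lowest value without 1 library was a fall of 0.18 without Sham 29P S14 (adjusted p = 0.353), where Cacna2d1 was at its highest, 247 CPM, against 166 and 176 CPM in the other Sham 29P libraries. Cacnb2, the main cardiac beta subunit, was called in the 29P groups on the TMM scale alone (-0.51, adjusted p = 0.0330).

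Stim1, the store sensor that opens Orai channels, read 16.6, 13.1, 19.4, 16.4 and 20.6 CPM in Sham Veh and 24.3, 23.5 and 25.9 CPM in TAC Veh, and the groups did not overlap. It rose by 0.53 ± 0.15 (adjusted p = 0.0234) in the saline groups and by 0.48 ± 0.15 (adjusted p = 0.0248) in the 29P groups, and stood at 0.20 and 0.12 on the TMM scale. Its saline call was lost without Sham Veh S6, TAC Veh S2 or TAC Veh S16, and its 29P call without Sham 29P S14. Orai1, its channel, gave 0.57 ± 0.25 and 0.61 ± 0.25 (adjusted p = 0.104 and 0.0622).

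Of the T-type channel genes, Cacna1g rose in the 29P groups (1.13 ± 0.30, adjusted p = 0.0137), from 11.8, 4.79 and 6.33 CPM in Sham 29P to between 13.1 and 21.0 CPM in TAC 29P, and gave 0.84 ± 0.31 (adjusted p = 0.0565) in the saline groups. TMM values were 0.76 (adjusted p = 0.0530) and 0.51 (adjusted p = 0.210). Cacna1h stood at 10.5, 12.7 and 15.2 CPM in Sham Veh S19, Sham Veh S20 and TAC 29P S18, the 3 libraries with atrial transcripts, and between 1.76 and 6.23 CPM in the other 14. With all libraries its changes were -0.82 ± 0.52 in the saline groups and 1.08 ± 0.51 in the 29P groups. Without those 3 libraries they were -0.14 and 0.81 (adjusted p = 0.821 and 0.0856).

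Among the extrusion genes the exchanger Slc8a1 read 285, 162, 185, 198 and 210 CPM in Sham Veh, 242, 233 and 263 CPM in TAC Veh, 248, 277.5 and 226 CPM in Sham 29P, and 213 to 330 CPM with a median of 242 in TAC 29P, the highest again in S18. Its groups overlapped and it was not called: the changes were 0.27 ± 0.16 (adjusted p = 0.2001) and 0.02 ± 0.15 (adjusted p = 0.931), with -0.06 and -0.35 on the TMM scale, both turned in direction.

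The plasma membrane calcium pumps rose on the CPM scale in the saline groups. Atp2b4 read 27.0, 19.6, 27.0, 27.8 and 31.7 CPM in Sham Veh and 45.3, 31.3 and 47.6 CPM in TAC Veh, so that TAC Veh S12 lay within the Sham range. It rose by 0.63 ± 0.17 (adjusted p = 0.0152), and by 0.52 ± 0.16 in the 29P groups (adjusted p = 0.0250). Atp2b1 read 63.8, 56.2, 60.3, 57.9 and 64.5 CPM in Sham Veh and 85.3, 72.7 and 86.7 CPM in TAC Veh without overlap. It rose by 0.43 ± 0.11 (adjusted p = 0.0164) in the saline groups and gave 0.14 ± 0.11 (adjusted p = 0.345) in the 29P groups, and the difference between these changes was -0.29 ± 0.16 (unadjusted p = 0.0855, adjusted p = 0.998). Without the libraries with atrial transcripts, among them TAC 29P S18 where Atp2b1 was highest, that difference was -0.37 (unadjusted p = 0.0195 in limma). It was not called after adjustment. On the TMM scale neither pump was called: Atp2b4 stood at 0.30 and 0.15, and Atp2b1 stood at 0.10 in the saline groups and turned from 0.14 to -0.23 in the 29P groups. Their saline calls were lost without TAC Veh S2 or S16. Of the sodium pump genes, Fxyd1 (phospholemman, its cardiac regulator) rose in the 29P groups (0.38 ± 0.12, adjusted p = 0.0261; TMM 0.02). It was lowest in Sham 29P S14 at 76.8 CPM, without which the adjusted p was 0.229. In the saline groups it turned from 0.09 to -0.24 with TMM scaling. Atp1b1, the beta subunit, gave 0.27 ± 0.12 and 0.13 ± 0.12 (adjusted p = 0.107 and 0.394), and turned to -0.06 and -0.23 on the TMM scale.

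The ratio of pump to exchanger within a library does not depend on how libraries are scaled. The log2 ratio of Atp2a2 to Slc8a1 was 5.01, 5.17, 5.35, 5.14 and 5.36 in Sham Veh and 4.47, 4.74 and 4.45 in TAC Veh, and 5.18, 4.94 and 5.26 in Sham 29P against 4.58 to 4.89 in TAC 29P. Back-transformed from the mean log2 ratios, Atp2a2 had 36.95 times the CPM of Slc8a1 in Sham Veh and 23.5 times in TAC Veh, and 34.9 times in Sham 29P and 26.9 times in TAC 29P. Each of the 3 TAC Veh libraries lay below all Sham Veh libraries, and each of the 6 TAC 29P libraries below all Sham 29P libraries. The differences of -0.65 and -0.38 had p = 0.0179 and 0.0119 by exact two-sided permutation, the smallest that the 56 and 84 possible arrangements allow. Adjusted over the 12 ratio tests made, each p was 0.107, so neither passed the correction. Without the libraries with atrial transcripts the saline difference was -0.62 (exact permutation p = 0.1, the smallest that design allows).

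**Figure D4:**
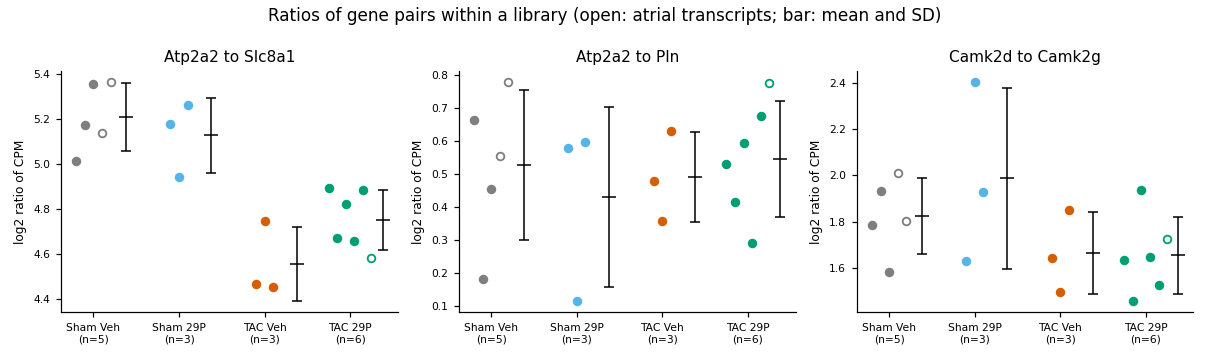
Log2 ratio of CPM within each library (y axis) by group (x axis) for Atp2a2 to Slc8a1, Atp2a2 to Pln and Camk2d to Camk2g, with the mean and SD as a bar and open circles for the 3 libraries with atrial transcripts. For Atp2a2 to Slc8a1 the TAC Veh libraries (4.45 to 4.74) lie below the Sham Veh libraries (5.01 to 5.36); the other ratios overlap.

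The ratio of the pump to its brake overlapped between all groups. The log2 ratio of Atp2a2 to Pln averaged 0.53 ± 0.23 (SD, n = 5) after Sham surgery with saline and 0.43 ± 0.27 (SD, n = 3) with 29P. After TAC it averaged 0.49 ± 0.14 (SD, n = 3) with saline and 0.55 ± 0.18 (SD, n = 6) with 29P. The differences after TAC were -0.04 and 0.12, with exact permutation p = 0.804 and 0.476, and both are smaller than the spread within groups.

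Of the 4 kinase and calmodulin genes, 0 were called in the saline groups and 1 rose in the 29P groups, against 22.5% and 31.4% of all genes that rose. On the TMM scale 0 were called, where 4.04% and 5.62% of all genes rose, and these counts were the same without the libraries with atrial transcripts (13.4% and 30.2% of all genes, and 3.06% and 6.83% on the TMM scale). Camk2d, the main cardiac CaMKII, read 136, 99.9, 123, 118 and 121 CPM in Sham Veh, 147, 139 and 134 CPM in TAC Veh, 131, 156 and 120 CPM in Sham 29P, and 126 to 151 CPM with a median of 139 in TAC 29P. Its changes were 0.23 ± 0.11 and 0.03 ± 0.10 (adjusted p = 0.107 and 0.852), and -0.10 and -0.34 on the TMM scale, both turned in direction. Camk2g gave 0.39 ± 0.15 and 0.36 ± 0.15 (adjusted p = 0.0678 and 0.0689), with 0.06 and -0.0045 on the TMM scale. The ratio of Camk2d to Camk2g differed by -0.16 and -0.33 after TAC (exact permutation p = 0.232 and 0.131). Calm3 rose in the 29P groups (0.65 ± 0.19, adjusted p = 0.0183; TMM 0.29), lost without Sham 29P S14 (adjusted p = 0.167). Calm2 was not called, and its saline change of 0.26 turned to -0.07 with TMM scaling. Of the mitochondrial members, Mcu, the uniporter pore, and Letm1, an inner membrane exchanger, were called in neither comparison on either scale. With TMM scaling Mcu turned from 0.20 and 0.14 to -0.13 and -0.23, and Letm1 from 0.07 and 0.23 to -0.26 and -0.13.

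The effect of 29P was compared at fixed surgery. TAC 29P and TAC Veh differed in 0 of the 37 members at the adjusted threshold of limma, as did 0.0% of all genes tested. At an unadjusted p of 0.05, 2 members were higher and 0 lower, against 1.05% and 0.931% of all genes. The counts were 1 and 1 (Atp2b1, -0.21, unadjusted p = 0.0454 in limma) without the libraries with atrial transcripts (1.23% and 1.8% of all genes). They were 1 and 0 with the runs of label numbers in the fit (0.795% and 1.76%). With TMM scaling they were 1 (Casq1, 1.12, unadjusted p = 0.00399 in limma) and 0, against 1.52% and 0.931%. The 2 with all libraries were Casq1 (1.095 ± 0.353, unadjusted p = 0.00630 in limma) and Ppp1r1a (0.85 ± 0.40, unadjusted p = 0.0493), the latter at most at 1.16 CPM in any TAC library. With the runs in the fit these were 0.41 and 0.84 (unadjusted p = 0.202 and 0.0752 in limma), and the 1 member higher was Hrc (0.36, unadjusted p = 0.0260). The changes of Atp2a2 (0.24 ± 0.14), Pln (0.18 ± 0.12), Hrc (0.26 ± 0.13) and Ryr2 (0.18 ± 0.17) had unadjusted p = 0.117, 0.159, 0.0593 and 0.327. The log2 ratio of Atp2a2 to Slc8a1 exceeded that of TAC Veh by 0.20 under 29P (exact permutation p = 0.0952, adjusted p = 0.381), and by 0.14 to 0.29 when 1 library was left out. The lowest was without TAC Veh S16 (exact permutation p = 0.25) and the highest without TAC Veh S12 (exact permutation p = 0.0357, the smallest that 2 against 6 libraries allow). A p above the threshold does not show that the groups were alike.

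Sham 29P and Sham Veh likewise differed in 0 members at the adjusted threshold, where 0.00617% of all genes were called in either direction. At the unadjusted threshold 3 members were higher (Pln 0.30, Cacna1c 0.47 and Cacna2d1 0.37) and 3 lower (S100a1 -0.35, Bin1 -0.47 and Fxyd1 -0.28), against 1.6% and 5.89% of all genes. Without the libraries with atrial transcripts 0 were higher and 1 lower, against 1.08% and 2.83%, and on the TMM scale 4 were higher (Slc8a1, 0.35, besides) and 3 lower, against 3.47% and 4.97%. The highest value of Pln and Cacna2d1 and the lowest of S100a1, Bin1 and Fxyd1 among Sham libraries was in each case that of Sham 29P S14. The difference of the TAC change between 29P and saline was called for 0 members, against 0.00617% of all genes, and at the unadjusted threshold for 3, namely Casq1, Cacna1h and Ppp1r1a (1.63, 1.90 and 1.43), against 1.98% of all genes higher. Without the libraries with atrial transcripts these differences were 1.26, 0.95 and 0.95, and the count was 1 higher (Casq1, unadjusted p = 0.0348) and 1 lower (Atp2b1, -0.37), against 1.79% and 1.87% of all genes. With the runs of label numbers in the fit they were 0.27, 0.37 and 1.11, and 0 members were higher or lower at the unadjusted threshold, against 0.536% and 0.691% of all genes. With TMM scaling they were 1.59, 1.87 and 1.39, and 4 members were higher (Fxyd1, 0.26, besides) and 0 lower, against 2.1% and 1.35%.

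**Figure D5:**
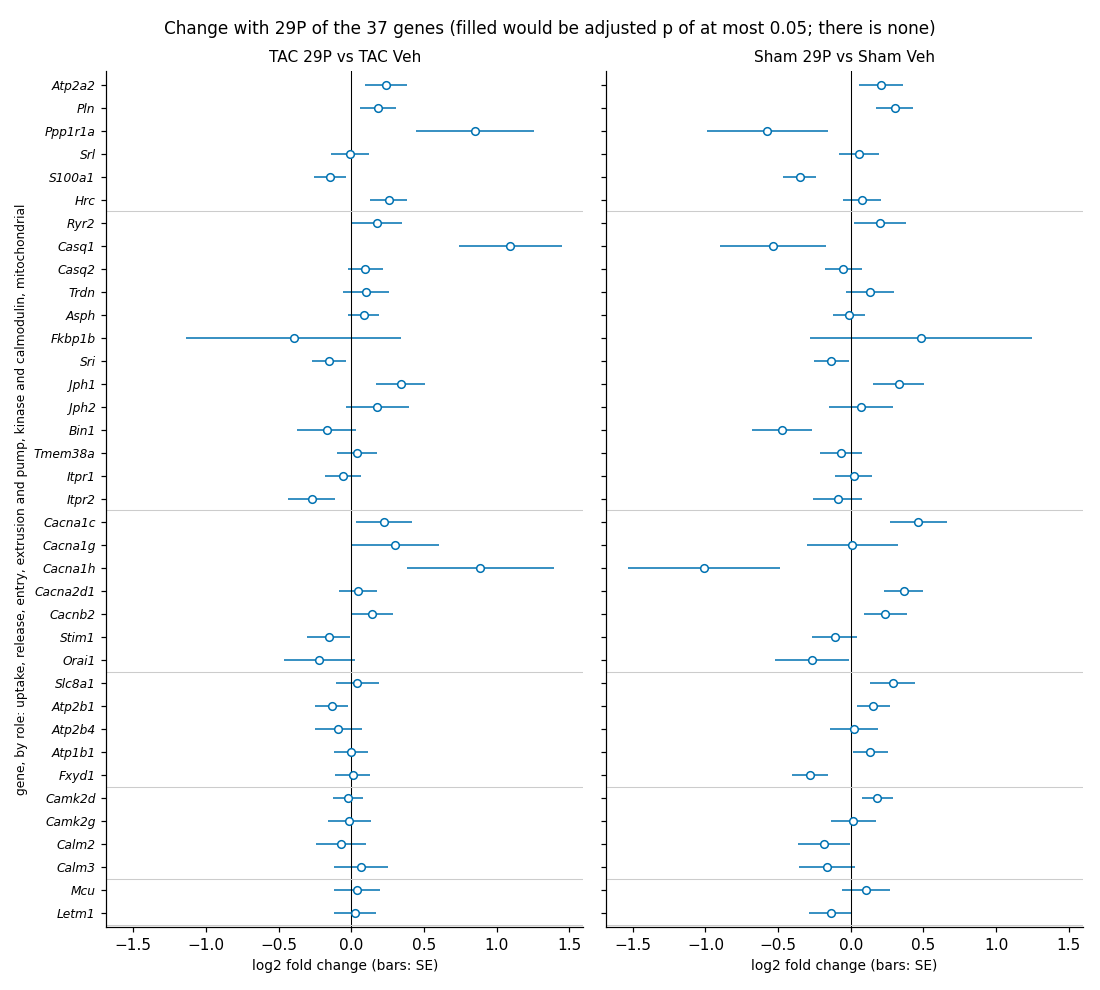
Log2 fold change with 29P on the CPM scale (x axis) with its standard error for the 37 genes (y axis, by role), after TAC (left) and after Sham surgery (right); no point is filled, since 0 genes had an adjusted p of at most 0.05. Casq1 stands at 1.095 after TAC and -0.53 after Sham surgery.

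Other genes of the pathway were read from a second list of 98, of which 96 were in the table and 88 passed the filter. In TAC Veh against Sham Veh 22 rose and 2 fell on the CPM scale, and 8 rose and 7 fell on the TMM scale, with medians of 0.28 and -0.05 against 0.35 and 0.02 over all genes. The shares over all genes were 22.5% and 1.91% on the CPM scale and 4.04% and 5.44% on the TMM scale. The list counts were 24 and 1, and 8 and 6, without the libraries with atrial transcripts. The shares of all genes there were 13.4% and 0.937%, and 3.06% and 3.38% on the TMM scale. Each count lower includes Cacng6, which reached the filter through its Sham libraries alone. Without Cacng6 1 fell on the CPM scale and 6 on the TMM scale. Leaving out the libraries with atrial transcripts as well, these counts were 0 and 5. In TAC 29P against Sham 29P 37 were counted higher and 2 lower (1 without Cacng6), against 31.4% and 1.12% of all genes. Of the 37, Trpc6 and Fxyd3 reached 0.5 CPM in no Sham library (at most 0.25 and 0.345 CPM there), so that their direction was built into the filter, and 35 remained without them. On the TMM scale 9 rose and 13 fell (12 without Cacng6), against 5.62% and 5.19%. Without the libraries with atrial transcripts the counts were 32 and 3 on the CPM scale, against 30.2% and 1.33% of all genes. Taking out Trpc6 and Cacng6 left 31 and 2. On the TMM scale the counts were 11 and 12 (11 lower without Cacng6), against 6.83% and 5.9%. Cacnb3, a beta subunit of voltage-gated calcium channels, read 1.90 to 2.86 CPM in Sham Veh and 6.90 to 7.78 CPM in TAC Veh, a 3.10-fold rise (1.63 ± 0.25, adjusted p = 0.00122) that stood at 1.30 on the TMM scale. Cacnb1, another beta subunit, rose by 1.22 and Itpr3 by 0.98. The CaMK kinases' activators Camkk1 and Camkk2 rose by 1.59 and 0.99, the FXYD family members Fxyd6 and Fxyd5 by 1.32 and 0.97, and the reticulum calcium-binding Rcn3 by 1.13. Prkar1a, a regulatory subunit of protein kinase A, rose by 0.91 ± 0.13 (adjusted p = 0.00105) from 261 to 386 CPM in Sham Veh to 516 to 681 CPM in TAC Veh. Of these 9, Cacnb3, Camkk1, Fxyd6, Cacnb1, Camkk2 and Prkar1a were called on both scales.

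The 2 that fell in the saline groups were Vdac3, a pore of the outer mitochondrial membrane (-0.35 ± 0.09, adjusted p = 0.0171), and Cacng6, a gamma subunit of calcium channels. Vdac3 was not called on the CPM scale without the libraries with atrial transcripts. Cacng6 passed the filter through its Sham libraries alone, so that a call was built into the filter and no fold change is given. It was at 0.673 to 1.30 CPM in Sham Veh, 1.61 to 2.68 CPM in Sham 29P, 0.0499 to 0.213 CPM in TAC Veh and 0.0498 to 0.378 CPM in TAC 29P, where the lowest values are those of a single read. It was also 1 of the 2 counted as lower in the 29P groups, where the other was Strit1, which encodes the SERCA activator DWORF and fell by 1.55 ± 0.51 (adjusted p = 0.0309). Strit1 was at 1.52 to 4.47 CPM in Sham Veh, 0.685 to 1.01 CPM in TAC Veh, 1.57 to 3.88 CPM in Sham 29P and 0.272 to 1.61 CPM in TAC 29P, with adjusted p = 0.0513 in the saline groups. Sln, sarcolipin, was at most 0.626 CPM outside the libraries with atrial transcripts and was listed at 0 in all 3 TAC Veh libraries. Mcub, the dominant-negative partner of the uniporter, rose in the 29P groups (1.25 ± 0.25, adjusted p = 0.00352; TMM 0.88) and gave 0.68 (adjusted p = 0.0572) in the saline groups.

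Markers of other cell types are given beside these counts as sums on the CPM scale, where the median gene stood 1.27 times as high after TAC in the saline groups and 1.30 times in the 29P groups. The 7 fibroblast genes, led by Dcn, summed to 897 to 1376 CPM in Sham Veh, 760 to 1019 CPM in Sham 29P, 1968 to 2955 CPM in TAC Veh and 1325 to 2991 CPM in TAC 29P. The 6 macrophage genes, led by C1qb, summed to 108 to 148, 80.7 to 175, 198 to 327 and 191 to 254 CPM in the same order. The 5 endothelial genes, led by Cdh5, summed to 497 to 855, 413 to 789, 823 to 1091 and 727 to 1075 CPM. The 5 red cell genes, led by Hbb-bs, reached 3082 to 4992 CPM in TAC Veh against 1018 to 2463 CPM in Sham Veh, and 1036 to 4151 CPM in TAC 29P against 562 to 1680 CPM in Sham 29P, where the groups overlapped. The 6 smooth muscle and pericyte genes, led by Rgs5, summed to 861 to 1236 CPM in Sham Veh, 899 to 1134 CPM in Sham 29P, 1129 to 1584 CPM in TAC Veh and 1161 to 1370 CPM in TAC 29P, and the saline groups overlapped. Their mean sums after TAC were 1.335 and 1.26 times those after Sham surgery, near the shift of the median gene, and 1.07 and 0.975 times on the TMM scale. The fibroblast sums were 2.21 and 2.51 times as high (1.74 and 1.95 on the TMM scale), with no overlap on either scale. The macrophage sums were 1.93 and 1.84 times as high (1.53 and 1.47 on the TMM scale, where the 29P groups overlapped). The endothelial sums, 1.42 and 1.64 times as high (1.13 and 1.30), overlapped in each comparison on each scale. The ventricular cardiomyocyte sums were 0.92 and 1.01 times as high on the CPM scale, where the groups overlapped in each comparison. On the TMM scale they were 0.738 times as high in the saline groups, without overlap, and 0.788 times in the 29P groups, with overlap. The part of these cell types in the changes of Bin1, Itpr1, Itpr2, Stim1, Atp2b1 and Atp2b4 was not tested. Nor was that of cardiomyocytes in the TMM falls of Atp2a2, Pln, Hrc, Trdn and Jph1. In bulk tissue, fewer cells of a type and less RNA per cell cannot be told apart.

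Promoter windows of 25 members were matched by symbol in RefSeq (GRCm38.p6), and the 250 bases before each start were searched on both strands. AGATAA was present in 3 of the 25 (12%), Pln, Slc8a1 and Atp2b4, against 10.3% of 27025 promoters. TATAAA was present in Pln alone (4.0% against 12.97%), the MEF2 motif in Casq2 alone (4.0% against 3.01%), CATTCCT in Tmem38a and AAGGTCA in Jph2 (4.0% each, against 4.43% and 4.05%), and the CArG box in none (against 1.4%). A match is only a match of letters. Stretches of 100 bases are shown for 3 members, with the matches to these motifs in capitals. Pln (chr10:53337456-53337555, plus strand) and Casq2 (chr3:102086315-102086414, plus strand) are read as in the genome, and Slc8a1 (chr17:81738388-81738487, minus strand) as its reverse complement. AGATAA lies on the opposite strand in Pln.
Pln: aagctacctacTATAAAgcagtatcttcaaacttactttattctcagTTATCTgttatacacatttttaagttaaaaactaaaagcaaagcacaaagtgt
Casq2: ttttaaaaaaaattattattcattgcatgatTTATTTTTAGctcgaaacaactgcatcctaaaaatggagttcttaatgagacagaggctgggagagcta
Slc8a1: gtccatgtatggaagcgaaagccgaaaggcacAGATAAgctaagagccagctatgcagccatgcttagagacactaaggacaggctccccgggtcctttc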

How the data were processed

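Messenger RNA of the left ventricular apex was sequenced by the authors, whose processing notes name STAR 2.3.7, Partek Flow and mm10. Genes were annotated with GENCODE. The authors deposited CPM raised by a constant of 0.0001; the counting tool and its strand setting are not given in the sources used here. Per the study's methods libraries of low depth were removed before deposit, as was 1 further TAC Veh library because it clustered with the Sham libraries, a choice made on expression that bears on every comparison with TAC Veh. The deposited CPM of each library summed to 1000000, and 79.0% to 82.1% of low values were whole reads within a tolerance of 0.02, so counts were not recovered and no count model was fitted.

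Log2 of the deposited values was fitted with limma 3.58.1 (R 4.3.3) with a mean trend and 1 mean per group over all 17 libraries, for the 16218 genes with 0.5 CPM in at least 3 libraries; p-values were adjusted by Benjamini-Hochberg over these genes. Fold changes are on the log2(CPM + 0.0001) scale. TMM factors trimmed 30% of log ratios and 5% of levels. Ratios within a library were compared by exact two-sided permutation of libraries (12 tests). On data simulated for TAC Veh against Sham Veh over 16218 genes, with 200 changed, 61% of 2-fold and 12% of 1.41-fold changes were called. Far more genes were called in the data (3648 higher and 310 lower on the CPM scale). The adjusted threshold depends on that number, so the simulated rates do not give the share of real changes called. Members, lists and tests were chosen with earlier results of these data known. Values in every library are given for Atp2a2, Pln, Ryr2, Cacna1c, Slc8a1 and Camk2d and, in each role, for up to 3 called members with the largest change in TAC Veh against Sham Veh; genes of the second list are given by their ranges or changes alone, for the 10 called genes with the largest such change at a mean of at least 1 CPM and for others fixed by name, among them Sln, Strit1 and Mcub; some genes these rules name are not reported here, and others named were chosen after their values were seen. Animals are replicates. The labels name no batch. A second number in each library label, whose meaning is not given, falls into 4 runs, which were tried as a covariate. These were libraries S1 to S11, S12 to S14, S15 to S16 and S18 to S20. The last run is the 3 libraries with atrial transcripts, so this covariate and leaving those libraries out are not independent checks. Coordinates, exon lengths and coding sequences are from GENCODE M21 (GRCm38). Alternatives were other scalings, filters, added constants and thresholds, only the groups compared, and each library left out; leaving out the libraries with atrial transcripts was chosen after seeing the data.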

Additional observations from a re-analysis of the deposited data

Results flagged for a closer look

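In groups of 4 to 10 libraries, the highest or lowest value of a member was compared with the spread of the rest (Dixon's ratio at 95%); 5 of 74 groups held a value that stood apart, where chance gives about 1 in 20. Casq1 was 10.8 CPM in TAC 29P S11, below 22.1 to 30.9 CPM in the other TAC 29P libraries. Asph, which encodes junctin and related products of the dyad, was 238 CPM in Sham Veh S5 against 182 to 192 CPM in the others of its group, and 269 CPM in TAC 29P S8 against 221 to 236 CPM. Fkbp1b, which encodes a protein bound to the ryanodine receptor, was 0.0447 CPM in Sham Veh S6, the value of a single read, against 0.3802 to 0.491 CPM. Atp2b1 was 95.3 CPM in TAC 29P S18, a library with atrial transcripts, against 66.8 to 74.2 CPM.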

How the results depend on the processing

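No paired analysis was possible because the groups share no replicate numbers. In TAC Veh against Sham Veh the members higher numbered 1 with TMM, 1 with median-of-ratios scaling, 3 with totals without mitochondrial-encoded genes and 15 at the unadjusted threshold, and the members lower 6, 5, 4 and 6. The shares of all genes were 4.04%, 4.23%, 9.77% and 37.4% higher and 5.44%, 5.29%, 3.1% and 3.48% lower. In TAC 29P against Sham 29P the members higher numbered 2, 2 and 3 under those scalings and 1 with the runs of label numbers in the fit, and the members lower 8, 8, 6 and 0, with 1 lower when no filter was applied and 6 at the unadjusted threshold. The shares were 5.62%, 5.73%, 12.5% and 4.19% higher and 5.19%, 4.96%, 2.22% and 0.166% lower, with 0.638% and 1.96% lower in the last settings. TMM without the libraries with atrial transcripts, chosen after seeing the data, gave 0 higher and 1 lower in the saline groups (3.06% and 3.38% of all genes). In the 29P groups it gave 2 higher and 8 lower (6.83% and 5.9%). At the unadjusted threshold 2 members were called between TAC 29P and TAC Veh, 6 between Sham 29P and Sham Veh and 3 for the difference of the TAC changes. The shares of all genes higher and lower were 1.05% and 0.931%, 1.6% and 5.89%, and 1.98% and 0.863%. The cause was not tested.

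Without the atrial libraries the saline difference in the log2 ratio was 0.056 for Atp2a2 to Pln, which turned, and -0.62 for Atp2a2 to Slc8a1. Turned log2 changes in the saline groups (TMM, median-of-ratios, TMM without atrial libraries) were -0.14, -0.13 and -0.28 for Cacna1c, -0.063, -0.057 and -0.062 for Slc8a1, and -0.098, -0.092 and -0.094 for Camk2d. In the 29P groups they were -0.018, -0.012 and -0.056 for Itpr1, -0.35, -0.34 and -0.42 for Slc8a1 and -0.34, -0.33 and -0.34 for Camk2d. There Slc8a1 was also -0.16 and Camk2d -0.15 with totals without mitochondrial-encoded genes, Slc8a1 was -0.028 and Cacna1c 0.010 with the runs of label numbers, and Slc8a1 was -0.057 without the atrial libraries. Single-gene changes were followed for members called on the CPM scale in each TAC comparison, and for Atp2a2, Pln, Ryr2, Cacna1c, Slc8a1 and Camk2d in both. Gains could thus show only in changes of these named genes that were not called. Members such as Trdn and Jph1, called with TMM alone, are outside these counts. A change that turned was counted as turned alone, even where its call was lost. For the 34 changes, adding 0.1 or 1 CPM or filtering at 1 CPM kept direction and call in 34 of 34. Calls were lost for 15 and direction turned for 6 with TMM and with median-of-ratios scaling, for 16 and 6 with TMM without the atrial libraries, for 16 and 2 with the runs of label numbers, for 13 and 2 with totals without mitochondrial-encoded genes, for 3 and 1 without the atrial libraries, for 3 and 0 with only the groups compared and for 2 and 0 with no filter. Calls were gained for 4, 4, 2 and 3 under TMM, median-of-ratios, TMM without the atrial libraries and totals without mitochondrial-encoded genes, and for 4 at the unadjusted threshold.

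Leaving out 1 library at a time, the members higher ranged from 0 to 12 and lower from 0 to 4 in the saline groups, and from 2 to 14 and 0 to 5 in the 29P groups. The 12 came without Sham Veh S5 (26.3% of all genes higher), the 14 without Sham 29P S4 (39.7%) and the 2 without Sham 29P S14 (6.41%), and 0 were higher without TAC Veh S2 (2.6%). Over TAC Veh against Sham Veh, TAC 29P against Sham 29P, TAC 29P against TAC Veh and Sham 29P against Sham Veh, the ratio Atp2a2 to Pln ranged from -0.12 to 0.029, -0.041 to 0.20, -0.0088 to 0.13 and -0.18 to 0.061. Atp2a2 to Slc8a1 ranged from -0.75 to -0.60, -0.47 to -0.31, 0.14 to 0.29 and -0.15 to 0.011, and Camk2d to Camk2g from -0.25 to -0.077, -0.51 to -0.13, -0.092 to 0.085 and -0.044 to 0.34. In the 29P groups the changes ranged from -0.15 to 0.030 for Cacna1c, -0.057 to 0.097 for Slc8a1 and -0.056 to 0.13 for Camk2d. Groups of 3 libraries limit what could be called, and genes near 1 CPM rest on few reads.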
